A study of Mus musculus with 8 samples.

Results

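Lymphoid A was 1 of 21 hematopoietic classes that the authors assigned from RNA alone to single cells of mouse bone marrow, and it held 341 of the 22602 annotated cells. Its members were taken by that RNA annotation, with no use of the 35 surface proteins counted in the same cells by CITE-seq, in which each antibody carries a DNA tag that is sequenced with the RNA of the cell. For comparison, Lymphoid B held 467 cells, MPP A 588, MPP B 636, MPP C 198 and MPP D 265. The mice were FlkSwitch animals on a C57Bl/6 background, in which Cre driven by Flk2 switches cells for good from tdTomato (Tom) to GFP once Flk2 has been expressed. Young mice were 2 to 3 months old and old mice 20 to 24 months. From both ages, live, lineage-negative, c-Kit+ cells were sorted into touching CD150- and CD150+ gates, so the proteins of mature blood cells were limited by the sort.

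The earliest lymphoid progenitors lie within the multipotent progenitor (MPP) compartment, where Flk2 protein, CD135, comes up as cells lose stem cell activity. Sca-1 marks stem cells, MPPs and early lymphoid progenitors, CD27 is a costimulatory receptor of the TNF receptor family carried by most early progenitors, and CD62L, or L-selectin, is a homing receptor that marks progenitors with lymphoid potential. CD127, the interleukin-7 receptor alpha chain, is gained at the common lymphoid progenitor stage, and B220 follows on B-lineage cells.

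The cells came in 16 cell groups, named A1 to D4, with 2 young and 2 old groups under each of 4 letters. These names matched none of the 8 library titles, so no cell could be tied to a library or an animal, and no test over animals was run. The sorted cells of each gate and age were split into aliquots, and the spread over cell groups and letters given below may be technical. There were 8 cell groups, 1 young and 1 old in each letter, that held 19 to 65 Lymphoid A cells each and 316 in all, and the other 8 held 25 in all. No barcode was shared by cell groups of 1 letter, 52 were shared between cell groups of different letters, and no barcode occurred in more than 1 Lymphoid A cell. Letters A and B resembled each other, as did C and D, and some values are also given for these 2 sets. Lymphoid A cells had a median of 3051 antibody-derived tag (ADT) counts, from 709 to 30123, and a median of 31418 RNA UMIs. The median ADT depth was 3269.5 in young and 2818 in old Lymphoid A cells, against 2872 in Lymphoid B, 2095.5 in MPP A, 2349 in MPP B, 1331 in MPP C and 2513 in MPP D. MPP A also held far less RNA, at 13844 UMIs, whereas Lymphoid B was close to Lymphoid A at 30953.

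Surface protein is given as the deposited normalized score, in which the count of a tag is divided by the geometric mean of all tags in that cell and the logarithm of 1 plus the value is taken 2 times. A score sets 1 antibody against itself across cells, and neither folds nor comparisons of protein amount between antibodies can be read from it. Where antibodies are ranked below, the rank is of score differences only. Because the score of a weak tag moves with depth, differences were also taken after every cell had been thinned at random to 300 ADT counts. Thinning was 1 random draw that dropped most tags of most cells. It adds counting noise and can shrink differences. An antibody may thus lose its agreement across cell groups through noise as well as through depth, and which applied was not tested.

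Of the 5 proteins used to check the label, Sca-1 and CD135 ranked near the top of the 21 classes. CD27 and CD62L ranked lower, and CD127 gave no separation. Sca-1 averaged 0.916 ± 0.335 (SD over 341 cells), the third highest of 21 classes after HSC at 1.19 and MPP A at 0.977. CD135 averaged 0.246 ± 0.219, which ranked 2 of 21 after the DC progenitor class, but after thinning it differed by -0.028 from MPP A, lower in 7 of 8 cell groups, and by -0.0056 and -0.010 from MPP B and MPP D. CD27 was 1.42 ± 0.135 and ranked 5 of 21, within a narrow band that MPP B, MPP D, Lymphoid C and Lymphoid B headed. CD62L was 1.22 ± 0.371 and ranked 8, below Lymphoid B at 1.39. CD127 was 0.262 ± 0.145, which ranked 7 and lay below MEP, CMP/other and 4 erythroid classes, which are not known to carry the receptor, so CD127 protein did not set Lymphoid A apart. B220 was 0.303 ± 0.115 and ranked 11.

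**Figure D1:**
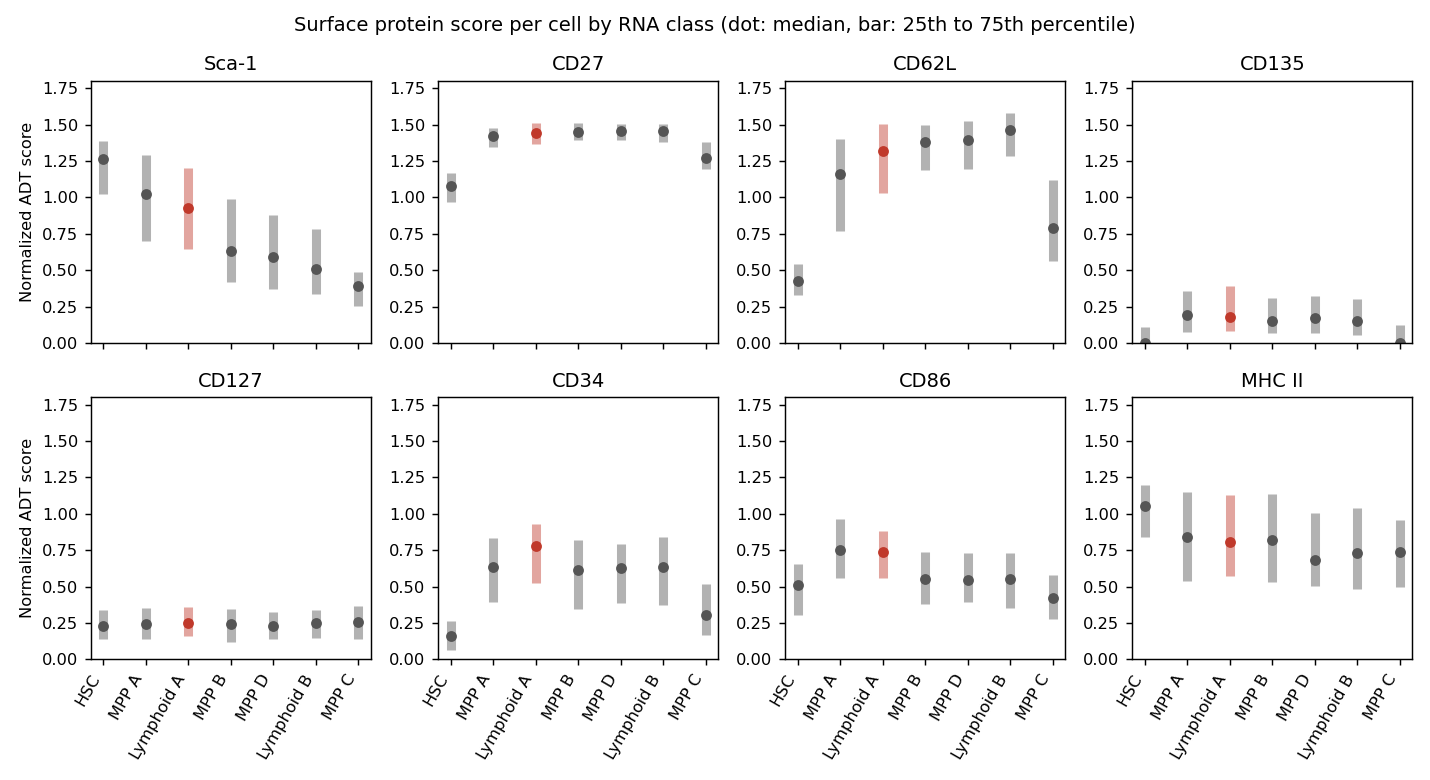
Normalized ADT score (y axis) of 8 surface proteins in 7 RNA classes (x axis). Dots are the medians over cells, bars span the 25th to the 75th percentile of the cells, and Lymphoid A is in red. Sca-1 steps down from HSC through MPP A and Lymphoid A to MPP C, whereas CD127 is flat across the classes.

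The level in erythroid cells, 6294 cells of the Ery A, Ery B and Ery C classes with a median of 1800 ADT counts, served as background for both receptors. CD135 was above the 95th percentile of the erythroid cells in 98 of 341 Lymphoid A cells, 28.7% (95% exact binomial interval 23.99 to 33.86), in 27.4% of MPP A, 22.5% of Lymphoid B and 0.505% of MPP C. After thinning, the share in Lymphoid A was 8.80% (6.01 to 12.3), below that of MPP A at 11.6% (9.11 to 14.5), against 7.49% in Lymphoid B and 0 of 197 cells in MPP C. CD127 was above that percentile in 13 of 341 Lymphoid A cells, 3.81% (2.05 to 6.43), and in 1.13 to 4.42% of Lymphoid B and the MPP classes, which is below the 5% that the threshold leaves in erythroid cells. After thinning it was 5.87% in Lymphoid A (3.62 to 8.91) and 6.00% in Lymphoid B (4.02 to 8.55), with intervals that cover this 5%, but 7.16% in MPP A (5.21 to 9.55) and 9.14% in MPP C (5.51 to 14.1). In Lymphoid A, CD127 is thus read as background. These intervals cover counting error only.

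With score thresholds of 0.71 for Sca-1 and 1 for CD117, 244 of 341 Lymphoid A cells, 71.6% (66.4 to 76.3), fell in the Sca-1+ CD117+ gate, as did 74.5% of MPP A but 44.0% of MPP B, 37.4% of MPP D, 29.8% of Lymphoid B (25.7 to 34.1) and 3.54% of MPP C. The other 97 Lymphoid A cells were below the Sca-1 threshold, and none was below that for CD117, the stem cell factor receptor on which the cells had been sorted. CD48, an adhesion protein gained when stem cells become MPPs, was above a score of 1.1 in 94.7% of Lymphoid A cells, and CD150, a stem cell and megakaryocyte protein, above 0.45 in 4.40% (2.48 to 7.15), against 10.6% and 78.8% of HSC. Lymphoid B and the MPP classes had 91.2 to 100% for CD48 and 2.36 to 3.77% for CD150. The paper chose both thresholds to annotate or divide megakaryocyte progenitors.

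Against Lymphoid B, Lymphoid A carried more Sca-1, CD86 and MHC II and less CD61 and CD48. These 5 of 35 antibodies (14.3%) differed in 1 direction in all 8 cell groups. After thinning, Sca-1, CD86 and CD48 kept it, MHC II and CD61 had it in 7 of 8, and CD79b, a part of the B cell receptor, gained it as lower at -0.064. Sca-1 was higher by 0.344 and 0.317 in A1 and A3, 0.303 and 0.379 in B1 and B3, 0.286 and 0.237 in C1 and C3, and 0.355 and 0.373 in D1 and D3. The mean difference was 0.324 ± 0.048 (SD over 8 cell groups), and the smallest was 0.237. CD86, a costimulatory ligand of antigen-presenting cells, was higher by 0.140 ± 0.021, from 0.113 to 0.176. MHC II, which presents peptides to CD4 T cells, was higher by 0.135 ± 0.042, but by 0.081 between all cells without regard to cell group. In the opposite direction, CD61, the integrin beta 3 chain of platelets and progenitors, was lower by a mean difference of -0.112 ± 0.055, and B1 stood lowest at -0.221. CD48 differed by -0.066 ± 0.029, at -0.045 in letters A and B and -0.087 in C and D.

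The remaining markers did not separate the classes in every cell group. CD62L was lower in Lymphoid A in 7 of 8 cell groups, at -0.136 ± 0.086, with A3 the exception at 0.017. CD34, the sialomucin of stem and early progenitor cells, was higher in 7 of 8, at 0.083 ± 0.040, and CD16/32, the Fc gamma receptors of granulocyte and monocyte progenitors, was lower in 7 of 8, at -0.075 ± 0.060. CD135 was higher in 7 of 8, but its difference of 0.027 ± 0.025 came to 0.0012 after thinning to 300 ADT counts. CD27, CD127 and B220 each split 4 to 4, and CD150 differed by 0.0026 ± 0.0152. Of the 7 mature lymphoid proteins, 0 had 1 direction in all cell groups, and the median difference over them was -0.0035, beside 0.0026 over all 35 antibodies.

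**Figure D2:**
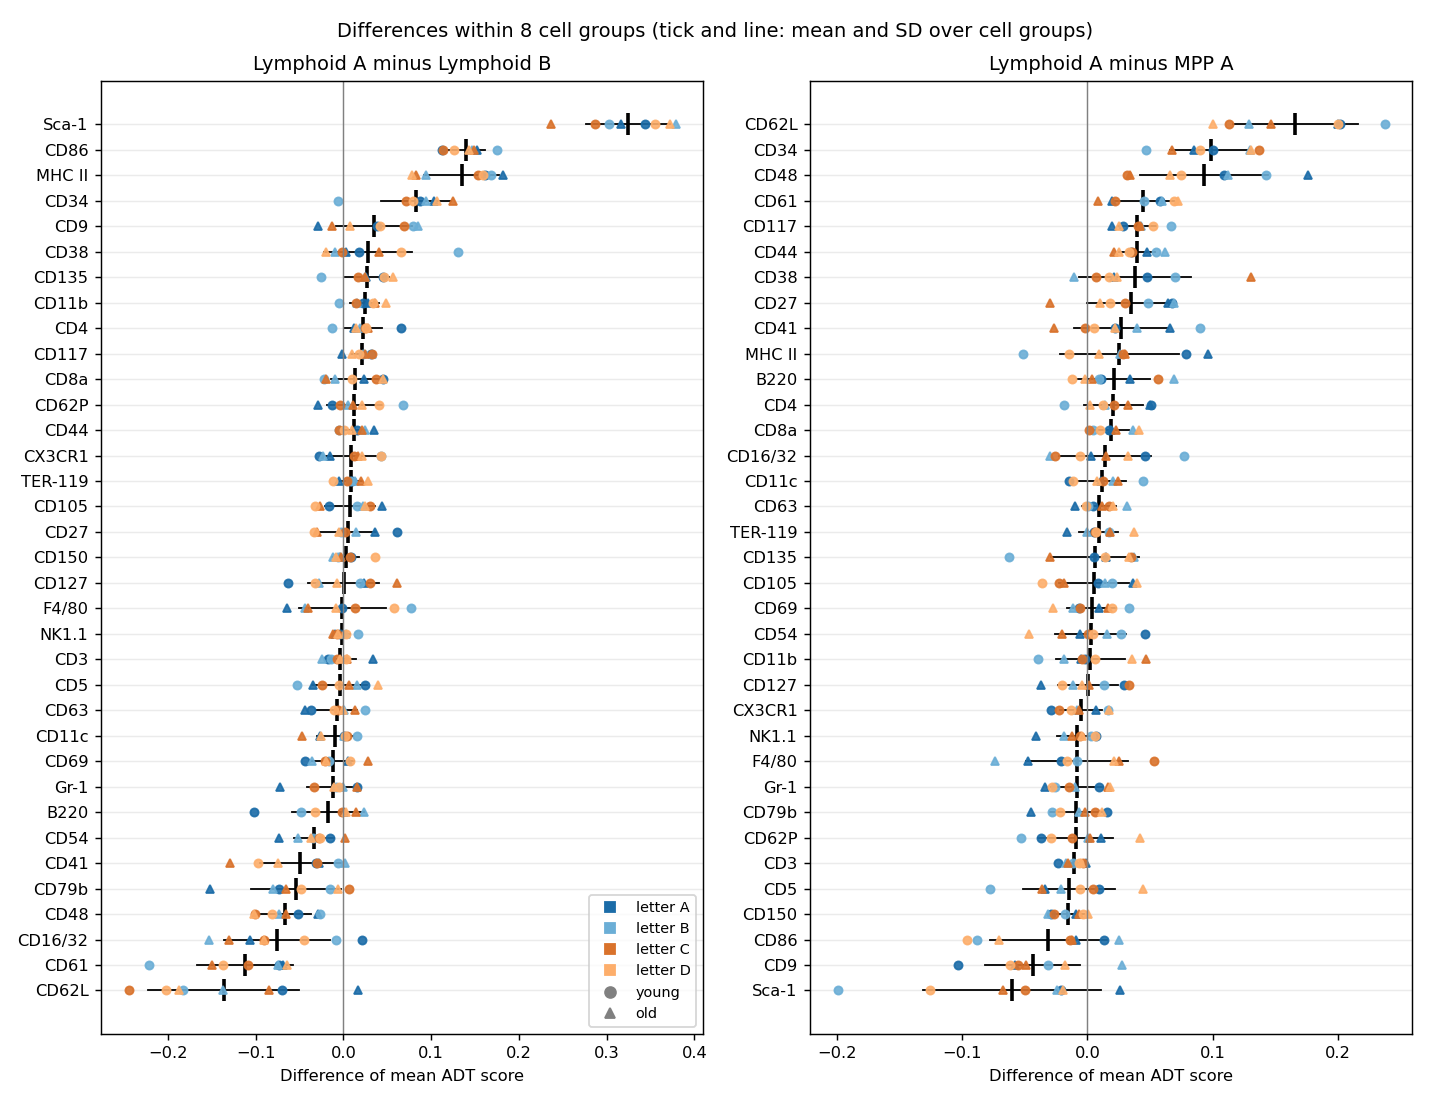
Difference of the mean ADT score (x axis) of 35 antibodies (y axis) between Lymphoid A and Lymphoid B (left) and between Lymphoid A and MPP A (right). Points are the 8 cell groups, colored by letter, with circles for young and triangles for old; ticks and lines are the mean and SD over cell groups. Sca-1 lies furthest right against Lymphoid B, with all 8 points above 0.23, and lowest on average against MPP A.

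Among Lymphoid B and the MPP classes, MPP A lay nearest to Lymphoid A on average by surface protein. Distances to the other classes were not taken. The distance between mean scores over the 35 antibodies was 0.305 ± 0.063 to MPP A, 0.367 ± 0.083 to MPP B, 0.486 ± 0.052 to MPP D, 0.493 ± 0.032 to Lymphoid B and 1.15 ± 0.117 to MPP C. After thinning it was 0.314 ± 0.085 to MPP A and 0.351 ± 0.051 to MPP B. The distances to MPP A and MPP B overlapped between cell groups, and all of them also hold counting error, which is larger in classes with fewer cells or tags.

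Compared with MPP A, Lymphoid A had more CD62L with and without thinning. On the deposited score it also had more CD34 and CD48, while Sca-1 lay lower in 7 of 8 cell groups. In all, 8 of 35 antibodies (22.9%) had 1 direction in all 8 cell groups. ADT depth was lower in MPP A. Only CD62L of the 8 kept 1 direction after thinning, and the parts of depth and counting noise in this loss were not tested. Sca-1, F4/80 and CD54, the adhesion protein ICAM-1, gained it, all lower in Lymphoid A. CD62L was higher by 0.202 and 0.200 in A1 and A3, 0.237 and 0.129 in B1 and B3, 0.113 and 0.146 in C1 and C3, and 0.200 and 0.100 in D1 and D3, a mean of 0.166 ± 0.050 that was 0.127 after thinning. CD34 was higher by 0.098 ± 0.033 and CD48 by 0.093 ± 0.051, the latter by 0.135 in letters A and B and 0.051 in C and D. After thinning, CD34 was 0.040 and CD48 0.062, each higher in 7 of 8. Sca-1 differed by -0.060 ± 0.071, and by -0.099, lower in all 8, after thinning. CD61 was higher by 0.044 ± 0.024, CD117 by 0.040 ± 0.015, CD44 by 0.039 ± 0.014 and CD8a by 0.019 ± 0.014, and CD3 was lower at -0.010 ± 0.008. Thinning brought these 5 to -5.6e-05, 0.0081, 0.014, 0.0023 and -0.0054, with mixed directions. CD27 was higher in 7 of 8 cell groups, at 0.035 ± 0.035 (0.0008 after thinning), and CD135 and CD127 differed by 0.0058 ± 0.0351 and 0.0005 ± 0.0243. B220 differed by 0.021 ± 0.029, CD150 by -0.015 ± 0.013 and CD16/32 by 0.014 ± 0.037, none in 1 direction.

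On the deposited score, Sca-1, CD86 and MHC II also led against MPP B and MPP D; all of these comparisons share the Lymphoid A cells. Against MPP B, 4 of 35 antibodies (11.4%) had 1 direction, all higher in Lymphoid A. These were Sca-1 at 0.219 ± 0.098, CD86 at 0.128 ± 0.049, MHC II at 0.121 ± 0.054 and CD44, the hyaluronan receptor, at 0.030 ± 0.012. After thinning, Sca-1 and CD86 kept it, MHC II at 0.079 and CD44 at 0.019 were higher in 7 of 8, and CD16/32 was lower in all 8, at -0.053. MHC II differed by 0.013 between all cells without regard to cell group. CD34 was higher in 7 of 8 cell groups, at 0.069 ± 0.054, and CD62L lower in 6 of 8, at -0.049 ± 0.054, and CD48 lower in 7 of 8, at -0.022 ± 0.031. Against MPP D, 6 of 35 (17.1%) had 1 direction, with Sca-1 higher by 0.289 ± 0.076, MHC II by 0.153 ± 0.058, CD86 by 0.151 ± 0.024 and CD34 by 0.109 ± 0.060. CD61 at -0.074 ± 0.055 and CD48 at -0.056 ± 0.031 were lower, and CD62L was lower in 7 of 8 cell groups, at -0.079 ± 0.055. After thinning, CD34 and CD61 had their direction in 7 of 8, and CD62L was lower in all 8, at -0.108. The sets of letters went opposite ways against MPP D in CD135, at -0.048 in A and B and 0.078 in C and D, and in CD16/32, at 0.042 and -0.077. CD27, CD135, CD127, B220, CD117, CD150 and CD16/32 had mixed directions against both classes, with mean differences from -0.038 to 0.028.

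The widest contrast was with MPP C, where 17 of 35 antibodies (48.6%) had 1 direction in all 8 cell groups, 11 higher and 6 lower in Lymphoid A, and 13 of them kept it after thinning. Sca-1 was higher by 0.550 ± 0.097, CD62L by 0.420 ± 0.124, CD135 by 0.184 ± 0.077 and CD27 by 0.168 ± 0.068, so 4 of the 5 label proteins had 1 direction on the deposited score, and CD127 did not, at -0.0093 ± 0.0422. CD34 was higher by 0.332 ± 0.075 and CD86 by 0.263 ± 0.071. CD16/32 was lower in Lymphoid A by a mean difference of -0.401 ± 0.052. CD9, a tetraspanin of megakaryocytes and mast cells, differed by -0.336 ± 0.096, and 4 of the 6 megakaryocyte and platelet proteins (CD9, CD41, CD63 and CD62P) were lower in all 8 cell groups, with a median over the list of -0.106 beside 0.0090 over all antibodies. B220 was higher by 0.072 ± 0.031, but turned to -0.017 after thinning and to -0.0051 on the log2 scale of tags per 1000. CD117, CD48 and CD150 had mixed directions. MPP C cells had 1331 ADT counts at the median, and after thinning the differences in Sca-1, CD62L and CD135 were 0.438, 0.365 and 0.069, in all 8 cell groups, and that in CD27 was 0.101, in 7 of 8. Those in CD34 and CD86 were 0.172 and 0.150, in all 8, whereas CD54 turned to -0.0070. Gr-1 at -0.171, CD79b at -0.151 and CD48 at -0.092 were lower in all 8 only after thinning.

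Lymphoid A cells differed widely among themselves in Sca-1 and CD62L. The middle 50% of the cells lay between 0.643 and 1.20 in Sca-1, between 1.03 and 1.505 in CD62L, and between 0.0836 and 0.391 in CD135, but only between 1.37 and 1.51 in CD27. After the mean of each cell group was taken out, cells with more Sca-1 tended to have more CD86 (Spearman rho 0.51) and less CD62L (-0.39), CD48 (-0.40) and CD117 (-0.32). CD62L went with CD48 (0.60) and CD27 (0.46), and CD135 went with less CD117 (-0.43). These are descriptions over 341 cells that share cell groups and depth, and tags of 1 cell share a normalization. ADT depth had a rho of -0.01 with Sca-1, 0.31 with CD62L and 0.26 with CD48. RNA depth had a rho of -0.36 with Sca-1 and 0.33 with CD62L, so the cells high in Sca-1 also held less RNA, and the part of depth in these relations was not tested.

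Among young cells 176 of 12403, 1.42% (1.22 to 1.64), were Lymphoid A, and among old cells 165 of 10199, 1.62% (1.38 to 1.88). By letter, the share was higher in old than young cells in A, at 0.590% against 1.38%, in B, at 0.980% against 1.20%, and in D, at 2.25% against 2.40%, but lower in C, at 2.31% against 1.76%. Only in A did the 2 intervals not overlap. Among Lymphoid A, Lymphoid B and MPP cells alone, Lymphoid A made up 15.4% in young (13.4 to 17.7) and 12.2% in old (10.5 to 14.0), so the direction turned with the denominator. CD150- and CD150+ cells were sorted separately and their numbers were set at the bench, so these are shares of the annotated cells, not of bone marrow.

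Old Lymphoid A cells carried less CD86, CD34, F4/80 and CD38, and more MHC II and CD11c, than young ones in all 4 letters, with and without thinning. CD61 was higher in old cells in all 4 letters, but in 3 of 4 after thinning. Of 35 antibodies, 19 (54.3%) differed in 1 direction in all 4 letters, 10 higher and 9 lower in old cells, and 11 of these 19 kept it after thinning. No test over letters was run, because letters could not be tied to animals. With 4 letters a two-sided sign-flip test could also not go below 0.125.

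CD86 scored 0.822, 0.788, 0.814 and 0.770 in young cells of letters A, B, C and D and 0.611, 0.605, 0.613 and 0.652 in old cells. The ages did not overlap, and the difference was -0.178 ± 0.042 (SD over 4 letters). CD34 scored 0.685, 0.654, 0.888 and 0.877 in young and 0.518, 0.517, 0.680 and 0.713 in old cells. Here the letters differed as much as the ages, but within each letter old cells were lower, by -0.168 ± 0.029 on average. Thinning reduced the CD34 difference to -0.0995 and left that of CD86 at -0.164.

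F4/80, a macrophage protein, differed by -0.142, -0.162, -0.153 and -0.146 in letters A to D, a mean of -0.151 ± 0.009. Thinning changed this to -0.076 ± 0.027. A single old Lymphoid A cell, in A4, held an F4/80 score of 2.14, beside a median of 0.369, and in the 8 large cell groups alone the mean difference was -0.169. There F4/80 scored 0.517 in A1 and 0.326 in A3, and 0.499 in B1 and 0.312 in B3. In the other letters it scored 0.393 in C1 and 0.250 in C3, and 0.392 in D1 and 0.238 in D3. CD38, an ectoenzyme of stem and lymphoid cells, was lower by -0.287 and -0.259 in A and B and by -0.063 and -0.130 in C and D, a mean of -0.185 ± 0.106 that was -0.122 after thinning. CD79b followed the same split, with -0.205 as the mean of A and B and -0.056 as that of C and D, but after thinning it was -0.104 ± 0.132, lower in 3 of 4 letters.

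MHC II gave the largest mean difference and the largest disagreement between letters. Young cells scored 0.715, 0.706, 0.689 and 0.692 in A, B, C and D, a narrow range. Old cells scored 1.27 and 1.20 in A and B but 0.781 and 0.776 in C and D, so the differences were 0.552, 0.499, 0.093 and 0.083, with a mean of 0.307 ± 0.254. As a share of all ADT counts of the Lymphoid A cells, MHC II was 1.05% in A1 and 6.50% in A3, 1.17% in B1 and 6.05% in B3, 1.33% in C1 and 1.73% in C3, and 1.37% in D1 and 1.99% in D3. CD11c, an integrin of dendritic cells, was higher in old cells by 0.122 ± 0.023 with no such split, and CD61 by 0.120 ± 0.059, most in letter B at 0.207. After thinning, CD11c was 0.060 and CD61 0.092, the latter higher in 3 of 4 letters.

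**Figure D3:**
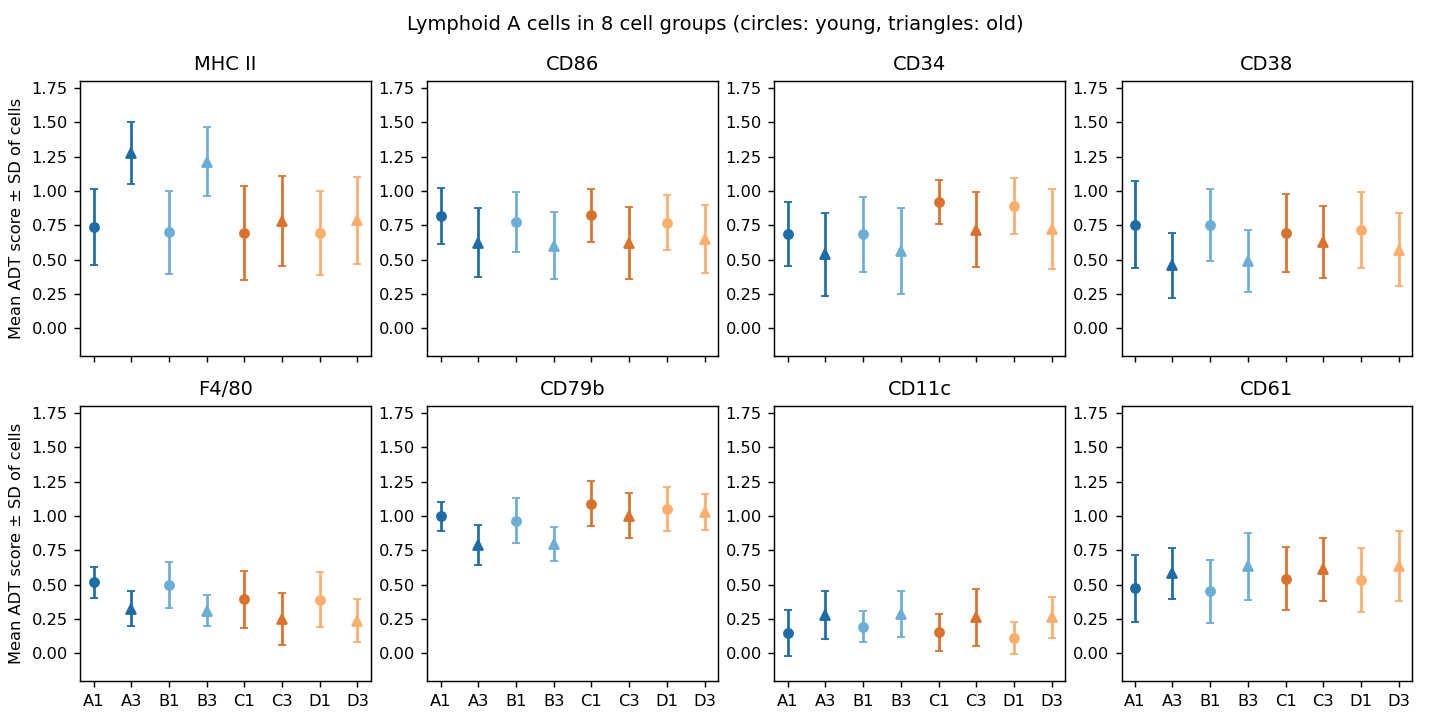
Mean ADT score (y axis; error bars, SD over cells) of Lymphoid A cells in the 8 large cell groups (x axis) for the 8 proteins with the largest age differences. Circles are young and triangles old, colored by letter. MHC II in A3 and B3, above 1.2, stands clear of the other 6 groups, which lie below 0.8.

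None of the 5 label proteins differed between ages in 1 direction in all 4 letters, beside 19 of all 35 antibodies. Sca-1 was higher in old cells by 0.088 and 0.090 in A and B and lower by -0.156 and -0.035 in C and D. The share of cells in the Sca-1+ CD117+ gate went the same way, 57.9% in A1 and 86.8% in A3, but 76.0% in C1 and 55.2% in C3. CD135 differed by -0.0096 and 0.0064 in A and B and by -0.145 and -0.075 in C and D, and CD27 by -0.0073 and 0.015 against -0.128 and -0.073. CD62L differed by 0.027 ± 0.075 and CD127 by 0.021 ± 0.032. The mean over the 5 proteins changed by -0.012 ± 0.031.

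The counts by function below stand beside 19 of all 35 antibodies (54.3%) with 1 direction between ages, and 11 after thinning. By function, 7 of the 8 myeloid and dendritic proteins had 1 direction, 4 higher (MHC II, CD11c, Gr-1 and CD11b) and 3 lower (CD86, F4/80 and CX3CR1) in old cells. After thinning, MHC II, CD11c, CD86 and F4/80 kept it, Gr-1 was higher in 3 of 4 letters, CD11b in 2, and CX3CR1 turned from -0.034 to 0.0070. CD11b, an integrin of myeloid cells, was higher by 0.025 ± 0.004 from a low level, and Gr-1 by 0.072 ± 0.042. Of the 6 megakaryocyte and platelet proteins, CD61, CD9, CD62P and CD150 were higher in all letters and CD63 lower, and the median difference over the list was 0.043, beside -0.0033 over all 35 antibodies. CD62P, or P-selectin, was higher by 0.042 ± 0.004, and CD9 by 0.080 ± 0.035. Of these 5, all but CD61 kept 1 direction after thinning. CD150 and CD117 were higher by 0.022 ± 0.027 and 0.034 ± 0.028, the latter in 3 of 4 letters after thinning. In the large cell groups alone, neither had 1 direction. CD150, at a low level, was 0.0652 in B3 against 0.0669 in B1, and CD117 was 1.4075 in A3 against 1.4080 in A1. Of the 7 mature lymphoid proteins, CD8a was higher and CD79b and NK1.1 lower in all letters, but none of the 3 kept it after thinning, and B220 was mixed at 0.0041 ± 0.0403. CD48 was lower by a mean difference of -0.072 ± 0.038, and CD16/32 was split between the sets, at -0.100 in A and B and 0.033 in C and D. TER-119, the erythroid protein, was mixed.

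**Figure D4:**
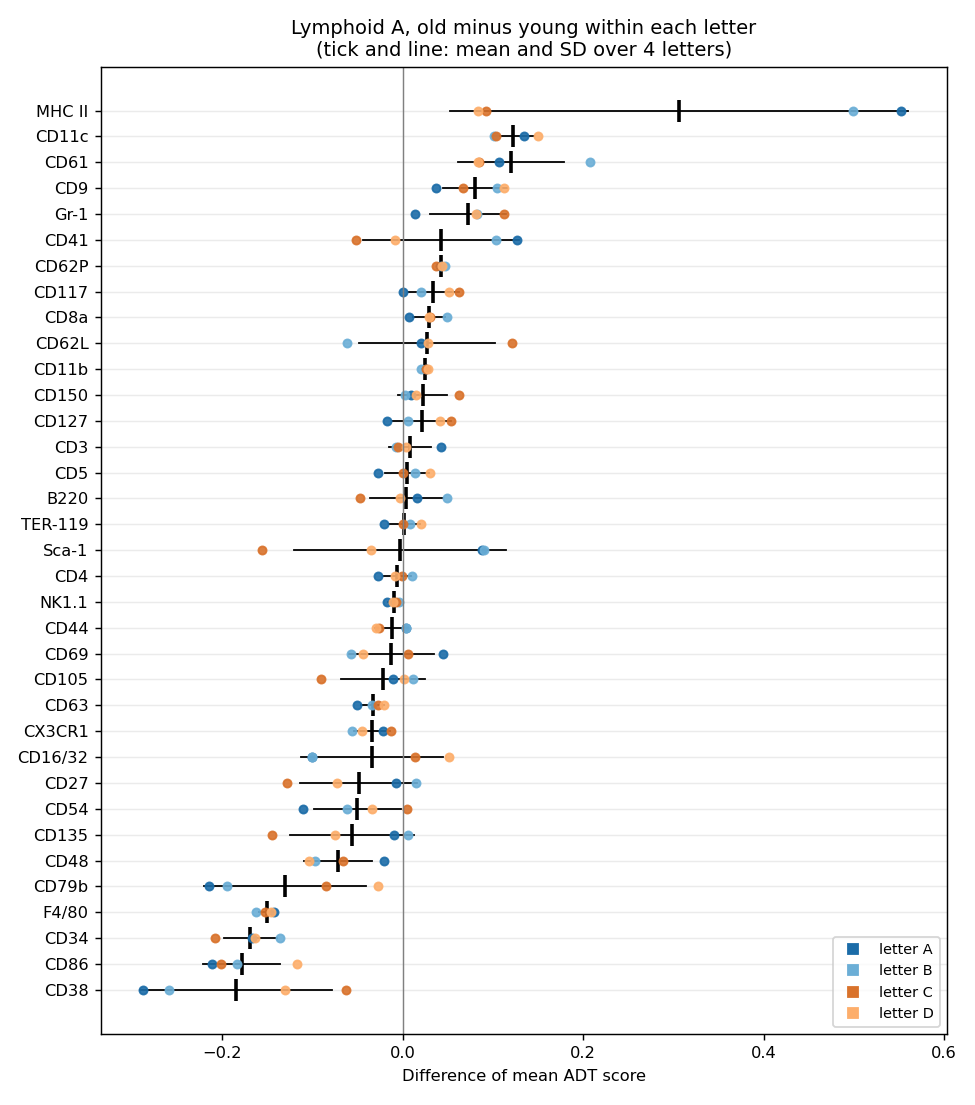
Old minus young difference of the mean ADT score (x axis) for 35 antibodies (y axis) in Lymphoid A. Points are the 4 letters, ticks and lines their mean and SD. MHC II spans 0.083 to 0.552 with A and B apart from C and D, whereas the F4/80 points lie together near -0.15.

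On the deposited score, with no thinning, many of these differences were also seen outside Lymphoid A. Over the 15 other classes with at least 10 cells of each age in every letter, CD11c was higher in old cells in all 4 letters in 14, CD48 lower in 14, CD86, F4/80 and CD38 lower in 13, and MHC II higher in 10. CD63 and CX3CR1 were lower in 12 and 11, Gr-1 higher in 8, and CD8a and CD117 higher in 7 each. The direction was shared by 5 classes in CD61, CD62P and CD79b, 4 in CD9, 1 in CD150, and 0 in CD11b and NK1.1. Lymphoid B had larger differences than Lymphoid A in CD9, at 0.128, and CD62P, at 0.062. The MHC II difference was 0.349 in Lymphoid B, 0.281 in MPP A and 0.299 in MPP B, and in letters A and B it ran from 0.431 to 0.577 in these 3 classes. CD34 was lower in old cells in all letters in 7 of the 15 classes, with -0.184 in Lymphoid B, -0.157 in MPP A, -0.192 in MPP B and -0.159 in MPP D, but 0.037 in MEP and -0.018 in MKP, where CD34 is low.

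CD79b and CD11b had larger mean age differences in Lymphoid A than in any of the 15 other classes, at -0.130 against -0.116 in MPP A, the next, and 0.025 against at most 0.0051 in the positive direction; CD79b nevertheless overlapped with MPP A within the spread of the letters. The difference for CD11b was above that of each of Lymphoid B and MPP A, B and D in all 4 letters, by 0.020 to 0.031 on average, on a protein of which Lymphoid A cells had a median of 1 tag, and neither CD11b nor CD79b had 1 direction after thinning. CD61 was higher in old cells of Lymphoid A and MPP A by 0.120 in both, but lower in MPP C by -0.065 ± 0.018, and the difference between Lymphoid A and MPP C was 0.186 ± 0.056. The age difference in F4/80 was lower in Lymphoid A than in Lymphoid B in all 4 letters, with a difference between the 2 age differences of -0.056 ± 0.031. None of these differences between classes was tested.

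**Figure D5:**
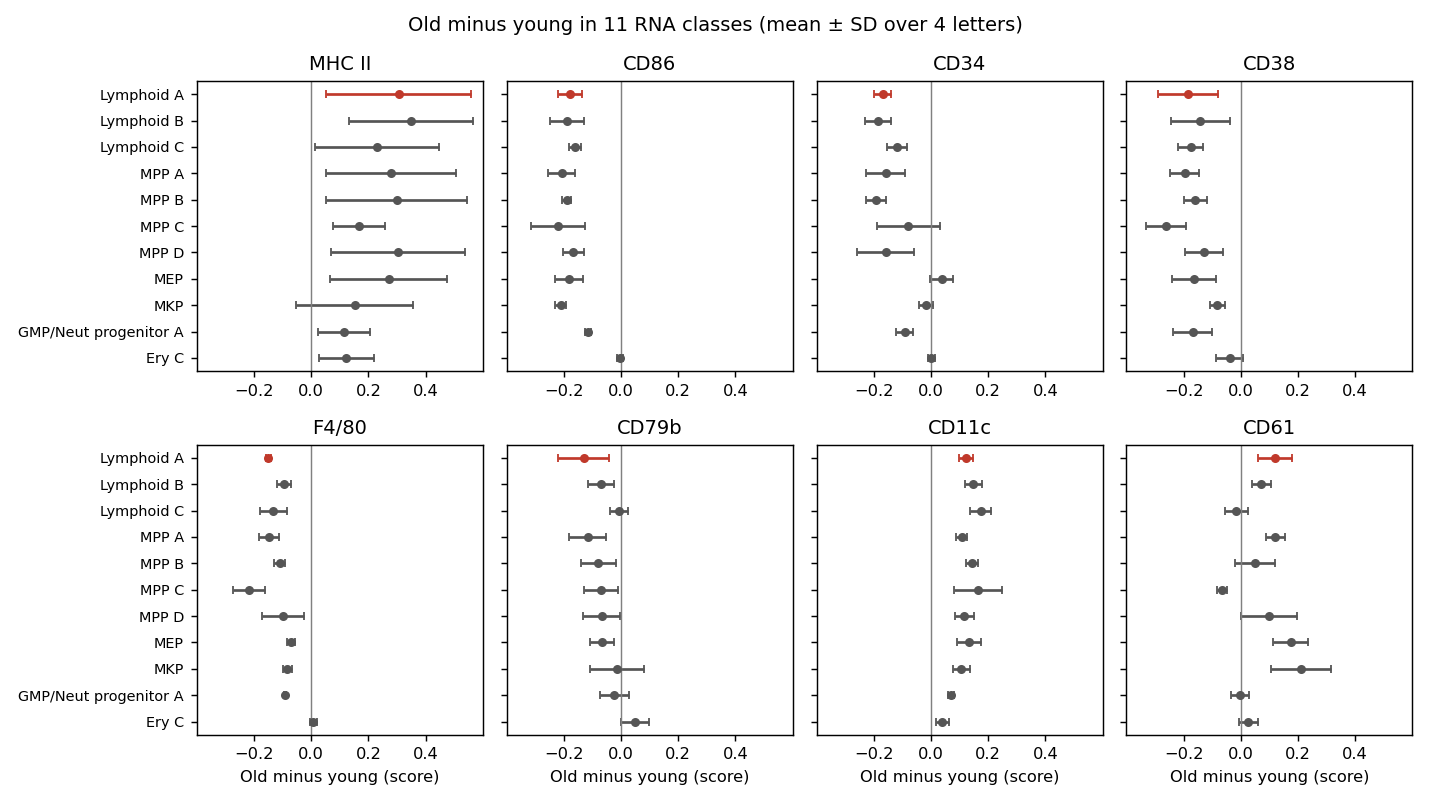
Old minus young difference of the mean ADT score (x axis; error bars, SD over 4 letters) of 8 proteins in 11 RNA classes (y axis), with Lymphoid A in red. Lymphoid A lies with Lymphoid B and the MPP classes for CD86, CD11c and MHC II, and opposite to MPP C for CD61.

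Egfp RNA, the reporter of past Flk2 expression, was called negative in 22 of 341 Lymphoid A cells, 6.45% (4.09 to 9.61). These were 6 of 176 young cells, 3.41% (1.26 to 7.27), and 16 of 165 old cells, 9.70% (5.64 to 15.3). The intervals of the ages overlapped. Letters C and D, which held more Lymphoid A cells than A and B, held 19 of the 22. The share was 4.07% in Lymphoid B, 4.59% in MPP A, 2.52% in MPP B, 3.03% in MPP C and 4.15% in MPP D. In each of these classes it was also higher in old than in young cells. Pooled over ages and letters, the Egfp-negative Lymphoid A cells scored 1.35 ± 0.254 in CD48 against 1.54 ± 0.166 in the 319 Egfp-positive cells, 1.01 ± 0.421 against 1.24 ± 0.364 in CD62L, 0.548 ± 0.233 against 0.722 ± 0.234 in CD86 and 0.148 ± 0.167 against 0.252 ± 0.221 in CD135 (SD over cells). They also had fewer ADT counts, 1996.5 against 3094 at the median, at 30439 against 31466 RNA UMIs. More of them were old, and old minus young was -0.072 in CD48 and -0.178 in CD86. Other proteins of the Egfp-negative cells were higher, by 0.135 in CD61, 0.121 in CD9, 0.086 in CD117 and 0.081 in CD150. Sca-1 and CD27 differed by -0.118 and -0.114. The parts of depth, age and letter in these differences were not tested. In Egfp-positive cells alone, 18 antibodies had 1 direction between ages, and the differences in CD86 and MHC II were -0.169 and 0.315.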

How the data were processed

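ADT counts of 35 antibodies in 22790 cells, and a table of 22602 of these cells, were used as deposited. The authors processed reads with Cell Ranger on mm10, per the labels (version not given in the sources used here), and left out cells with few genes and cells that lacked CD117 tags as well as Kit RNA. The 188 cells in the count matrix alone were not used. The authors' score was rebuilt from the deposited counts to within 5.0e-10. RNA UMI counts, mitochondrial percent (at most 5.32% in Lymphoid A), age, Egfp call, cell group and RNA class are the authors' values as deposited. The RNA class used the same cells, and RNA of the genes for these proteins may have taken part in it. Whether doublets were removed is not stated in the sources used here, no doublet caller was run, and 2 Lymphoid A cells had over 3 times the median ADT depth.

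Mean scores were compared within cell groups holding at least 10 cells of both classes, or within letters holding at least 10 cells of each age, and differences are given as mean ± SD over cell groups or letters. An antibody had 1 direction when all of these differences shared a sign. Shares of cells have exact Clopper-Pearson 95% intervals. Thinning drew 300 ADT counts per cell without replacement and rebuilt the score, leaving out 1 cell of MPP A and 1 of MPP C. The text names the 5 label proteins, 6 further proteins in every comparison, and those with 1 direction, a mean above the SD and the largest differences (at most 6 against Lymphoid B, where 5 qualified, 4 against each MPP class, 8 between ages); others are given by list and were chosen after their values were seen. Members and lists were chosen with earlier results of these data known. Scripts were tested on simulated data. Python 3.11.15, numpy 2.4.6, pandas 2.3.3, scipy 1.17.1 and matplotlib 3.10.9 were used.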

Additional observations from a re-analysis of the deposited data

Results flagged for a closer look

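Among 83 named differences checked for a cell group or letter far from the rest, 2 stood out, and chance alone flags about 1 in 20. Against Lymphoid B, CD150 in Lymphoid A was higher by 0.036 in cell group D1, while the other 7 cell groups lay between -0.011 and 0.0084. CD34 differed by -0.0063 in B1, while the others lay between 0.072 and 0.125.

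For 2 proteins, old and young cells differed in opposite directions in all 4 letters between Lymphoid A and another class, and neither difference was tested. How many pairs of protein and class were searched is not given here, and chance alone can flag some. The old minus young difference in CD61 was 0.120 in Lymphoid A and -0.065 in MPP C. That in NK1.1, which most Lymphoid A cells had at a count of 0, was -0.0098 in Lymphoid A and 0.013 in MPP A. After thinning to 300 ADT counts, neither kept 1 direction in Lymphoid A, at 0.092 for CD61 (higher in 3 of 4 letters) and -0.0015 for NK1.1.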

How the results depend on the processing

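Differences between classes were paired within cell groups and those between ages within letters. Pairing by library was not possible, because the replicate numbers of the libraries could not be tied to cells, so pairing went no further. With all cells pooled over cell groups, the mean over the 5 label proteins was 0.040 against Lymphoid B, 0.023, 0.036, 0.252 and 0.046 against MPP A to D, and -0.015 between ages, and MHC II was 0.081 against Lymphoid B and 0.013 against MPP B. Alternatives were other minimum cell numbers (5 or 20), medians, thinning to 300 ADT counts, centring on lineage antibodies, all cells without cell groups, tags per 1000 on the log2 scale, and 1 letter left out; separate sets of letters, a score with 1 logarithm and Egfp-positive cells were chosen after seeing the data. The cause of the shifts was not tested except that fewer cell groups or letters make 1 direction easier to meet.

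Antibodies with 1 direction against Lymphoid B numbered 8 with medians, 8 with centring, 10 on the log2 scale and 14 in letters C and D. Against MPP A they numbered 4 with medians, 4 after thinning, 15 in letters A and B and 14 in C and D. Against MPP B they were 9 in A and B and 12 in C and D, and against MPP D 12 and 13. Between ages they were 11 after thinning and 31 in C and D. Leaving out 1 letter gave 5 to 10 against Lymphoid B (8 without A and 10 without B), 9 to 11 against MPP A, 4 to 9 against MPP B (9 without B), 17 to 21 against MPP C, 6 to 9 against MPP D and 19 to 23 between ages. It gave a mean over the 5 label proteins of 0.034 to 0.049, 0.021 to 0.033, 0.037 to 0.054, 0.246 to 0.270, 0.043 to 0.054 and -0.021 to 0.0011 in the same order.

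After thinning, the mean over the 5 proteins turned from 0.029 to -0.0010 against MPP A, and was 0.015 against MPP B and 0.190 against MPP C. CD61 against MPP A turned to -5.6e-05 after thinning and -0.023 on the log2 scale, CD117 against MPP A to -0.030 on the log2 scale, and B220 against MPP C to -0.017 and -0.0051. The share of Lymphoid A cells above the erythroid level was 0.880% for CD127 and 19.9% for CD135 at the 99th percentile, and 8.80% for CD135 after thinning. The ratio of old to young shares of Lymphoid A, 1.14 (0.923 to 1.41), was 0.789 among lymphoid and MPP classes. CD54 against MPP C turned to -0.0070 after thinning and -0.114 on the log2 scale, and CX3CR1 between ages to 0.0070 after thinning, while NK1.1 between ages was 0 with medians. Thinning kept 3 of 5 antibodies with 1 direction against Lymphoid B, 1 of 8, 2 of 4, 13 of 17 and 4 of 6 against MPP A to D, and 11 of 19 between ages.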
